A study of Mus musculus with 4 samples.

Results

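The integrins and laminins are the 37 genes whose symbols name an integrin alpha subunit (18 genes), an integrin beta subunit (8 genes) or a laminin chain (11 genes), and they were taken by symbol alone from the 24322 symbols measured. Of these, 12 had a mean level of at least 1 FPKM (fragments mapped to a gene, set to its length and to the depth of the library) and entered the test, 5 of them alpha subunits, 3 beta subunits and 4 laminin chains, and 25 lay below that level. The measurements are RNA-seq libraries of cells sorted by FACS for the teal fluorescent protein mTFP1 from the retina of 4 mice, 1 library per mouse. The 2 control mice, 7984 and 3911, were Raxflox/WT and so still carried 1 intact *Rax* allele beside a floxed one, and the 2 *Rax* iCKO mice, 7983 and 3914, were Raxflox/flox. All 4 also carried Rlbp1-CreERT2, a tamoxifen-dependent Cre recombinase driven by a promoter fragment of the Müller glial gene *Rlbp1*, and the reporter R26-CAG-LoxP-mTFP1, and tamoxifen was injected into all of them at P4, with the retinas taken at P14. The strain was labelled 129S6. The same promoter is also active in the retinal pigment epithelium, so mTFP1 marks recombined cells and not a cell type by itself.

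Müller glia span the neural retina, and their endfeet rest on the inner limiting membrane, the basement membrane between the retina and the vitreous. Laminins are trimers of an alpha, a beta and a gamma chain that form the scaffold of such a membrane, and integrins are cell surface receptors, each made of an alpha and a beta subunit, that bind laminins and other matrix proteins and tie them to the actin cytoskeleton. Which alpha chain joins which beta chain sets the ligand. The comparison of control with *Rax* iCKO cells asks whether loss of the homeoprotein Rax in these glia went with a change in the RNA of that attachment machinery.

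Some facts of the libraries touch every value. The depth recovered from the steps between low values was between about 9270000 and 12710000 mapped reads per library. *Rax* was at 189 and 181 FPKM in the controls and at 111 and 98.4 FPKM in the *Rax* iCKO libraries, a log2 difference of -0.82 (SE 0.21, n = 2 per group), with adjusted p = 0.9999 in limma and adjusted p = 0.0223 when the run of mouse numbers (7983 with 7984, 3911 with 3914) was held as a block. *Xist*, which silences one X chromosome in females, had 24.5 and 21.2 FPKM in the controls against 0.0119 and 0.00605 FPKM in the *Rax* iCKO libraries, and the Y-linked *Ddx3y* was above 0 in mouse 7983 alone, at 12.4 FPKM. The level of *Xist* and the genotype therefore cannot be told apart here. No integrin or laminin gene lies on a sex chromosome, but this does not tell sex and genotype apart for them. The mouse numbers fall into a pair of runs, 7983 with 7984 and 3911 with 3914, each holding 1 mouse of either genotype, and what a run stands for is not given in the sources used here. Müller glial markers summed to between 10777 and 15799 FPKM over 12 genes. Bipolar neuron markers were also abundant, with sums of 6072 and 4405 FPKM in mice 7983 and 7984 and of 9004 and 10979 FPKM in mice 3914 and 3911 over 8 genes. By genotype, 3 of the 8 bipolar markers lay above both controls in both *Rax* iCKO libraries and 3 of the 12 Müller glial markers below. Over all genes tested the shares were 15.4% above and 14.1% below. Of the 10 rod markers 9 lay below, with sums of 1277 and 1086 FPKM in the *Rax* iCKO libraries and of 1913 and 1827 FPKM in the controls. The part of these cell types in any difference by genotype was not tested. In bulk RNA, fewer cells of a type and less RNA per cell cannot be told apart.

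The beta subunits *Itgb5* and *Itgb1* gave the highest levels of all integrins and laminins, at means of 86.2 and 58.8 FPKM over the 4 libraries. *Itgav*, the alpha chain that binds ligands with the RGD motif, followed at 24.5 FPKM, then the laminin chain *Lamb2* at 14.2 FPKM, *Itgb8* at 11.9 FPKM and *Itga9* at 10.9 FPKM. The other members tested lay between 1.26 FPKM for *Itga5* and 5.12 FPKM for *Itga3*. FPKM are per length, so these levels can be set side by side. The order held in all 4 libraries for *Itgb1* above *Itgav*, *Itgav* above *Lamb2*, *Lama1* above *Lama5* and *Itga7* above *Itga5*. It did not hold for *Itgb5* above *Itgb1*, *Lamb2* above *Itgb8* and *Itgb8* above *Itga9*, each of which was seen in 2 of the 4 libraries, nor for *Lama5* above *Itga7*, seen in 1. The summed level of the 8 beta subunits was between 92.5 and 234.8 FPKM per library, that of the 18 alpha subunits between 32.3 and 64.6 FPKM and that of the 11 laminin chains between 13.8 and 39.9 FPKM.

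**Figure D1:**
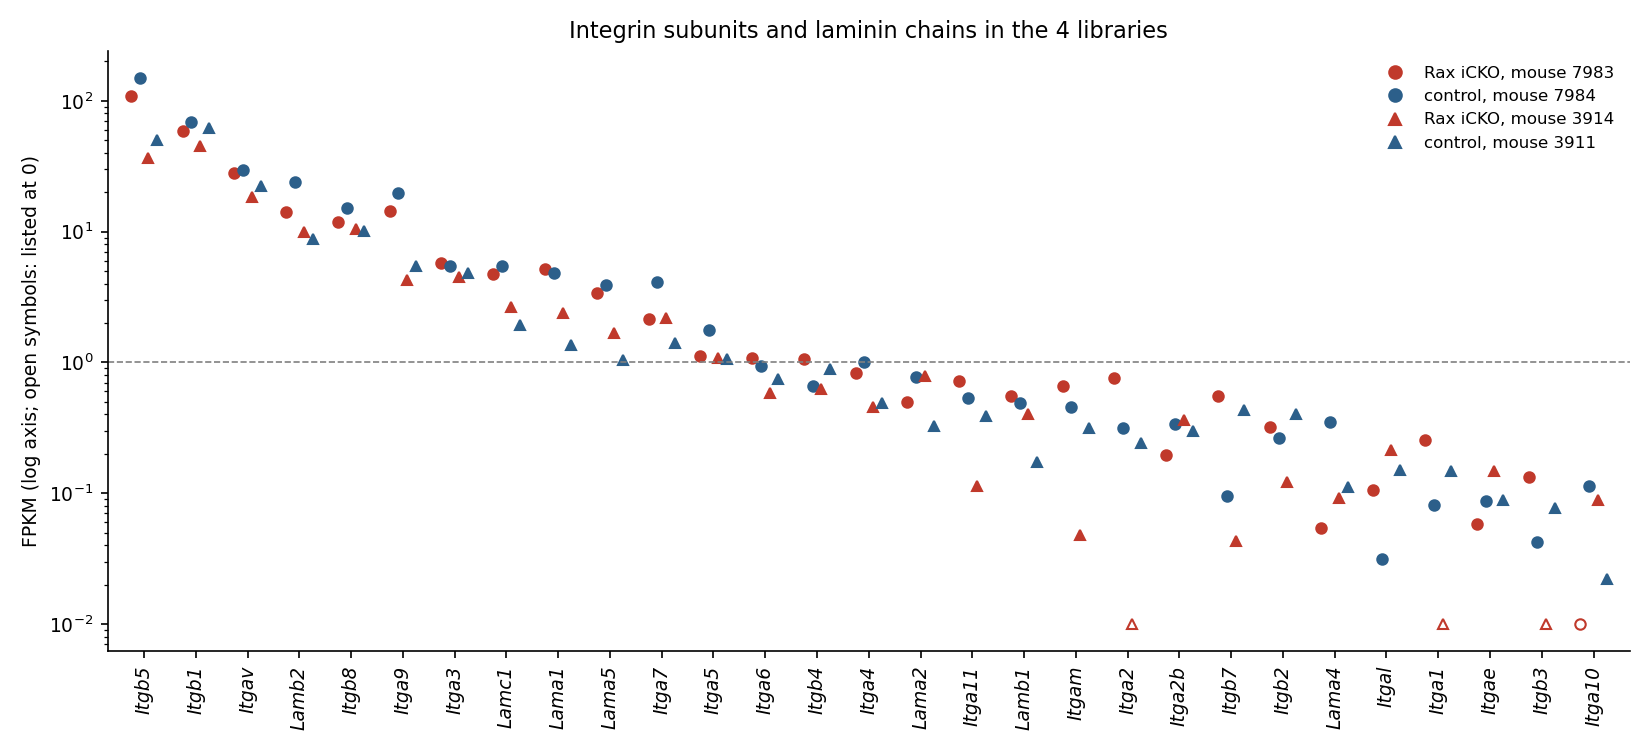
Level of the integrin and laminin genes above 0 in at least 3 libraries, in FPKM on a log axis, with 1 symbol per library (red, *Rax* iCKO; blue, control; circles, mice 7983 and 7984; triangles, mice 3914 and 3911; open symbols at the foot, listed at 0; dashed line, the mean of 1 FPKM needed for the test). Among the genes with the highest levels the circles lie above the triangles more often than the colours separate, as for *Itgb5* and *Itga9*.

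Between *Rax* iCKO and control cells no integrin or laminin gene passed the test. In limma on log2(FPKM + 1), 0 of the 12 members tested had an adjusted p under 0.05, where 0.0243% of the 12363 genes tested did. At an unadjusted p under 0.05 the count was again 0 of 12, beside 2.86% of all genes tested. The median log2 difference, *Rax* iCKO minus control, was -0.17 over the 12 members and -0.0044 over all genes tested. The difference was negative for 9 of the 12 members, beside 6275 of the 12363 genes tested. Without control 7984 the median of the members was 0.36 and without *Rax* iCKO 3914 it was 0.13. Without control 3911 it was -0.46 and without *Rax* iCKO 7983 it was -0.25. Each time the runs of mouse numbers were unequal between the genotypes. With all 4 libraries the median was -0.025 with no filter and -0.30 with a mean of at least 5 FPKM required. None of the 12 had both *Rax* iCKO libraries above both controls (15.4% of all genes tested), and 1, *Itgb1*, had both below (14.1%). A rule of at least a 2-fold ratio with an unadjusted p under 0.05 on FPKM called 0 of the 34 members above 0, beside 1.56% of 17865 genes. Without control 3911, 10 members lay below (33.3% of all genes tested), without *Rax* iCKO 7983, 5 lay below (29.1%), and without control 7984, 7 lay above (35%). Leaving out 1 library leaves the runs of mouse numbers unequal between the genotypes, so these counts also hold the difference between the runs. With 2 mice per group, an exact two-sided permutation test of a single gene cannot go below p = 0.333.

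*Itgb1* (chr8:128685654-128733579, GRCm38) encodes the beta subunit that pairs with most of the laminin-binding alpha chains. Its level was 69.3 and 62.3 FPKM in control mice 7984 and 3911 and 58.8 and 44.8 FPKM in *Rax* iCKO mice 7983 and 3914. Both *Rax* iCKO libraries thus lay under both controls, the only such case among the members tested. The means were 65.8 ± 4.93 FPKM in controls and 51.8 ± 9.95 FPKM in *Rax* iCKO cells (SD, n = 2 each). The log2 difference was -0.35 (SE 0.23), with adjusted p = 0.9999 in limma. With quantile normalization the groups overlapped.

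*Itgb5* (chr16:33829665-33949338) encodes a beta subunit that pairs with the alpha v chain. It stood at 149 and 49.7 FPKM in the controls and at 109 and 36.4 FPKM in the *Rax* iCKO libraries. The libraries of mice 7984 and 7983 were both far above those of 3911 and 3914, so the groups overlapped widely. Control cells gave 99.5 ± 70.4 FPKM and *Rax* iCKO cells 72.9 ± 51.6 FPKM (SD, n = 2 each), a log2 difference of -0.44 (SE 0.66). Within each run the *Rax* iCKO library was under its control by the same amount, -0.44 in mice 7983 and 7984 and -0.44 in mice 3914 and 3911.

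*Itgb8* (chr12:119162803-119238276), whose product joins alpha v in a receptor that activates latent TGF-beta, had 15.2 and 10.2 FPKM in the controls and 11.8 and 10.5 FPKM in the *Rax* iCKO libraries. One control lay above both *Rax* iCKO values and the other below both. The log2 difference was -0.15 (SE 0.27).

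Among the alpha subunits, *Itgav* (chr2:83722303-83806917) was measured at 29.7 and 22.3 FPKM in the controls and at 27.8 and 18.2 FPKM in the *Rax* iCKO libraries. The groups overlapped, since mouse 7983 lay above control 3911. The log2 difference was -0.18 (SE 0.28), and it was -0.09 in mice 7983 and 7984 and -0.28 in mice 3914 and 3911. *Itga9* (chr9:118606709-118901003), the partner of beta 1 in a receptor for tenascin-C, had 19.6 and 5.41 FPKM in the controls and 14.4 and 4.29 FPKM in the *Rax* iCKO libraries. Here too the genotypes interleaved, with the higher value of each in mice 7984 and 7983, and the log2 difference was -0.35 (SE 0.69).

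The laminin-binding alpha chains were low. *Itga3* had 5.43 and 4.80 FPKM in the controls and 5.78 and 4.48 FPKM in the *Rax* iCKO libraries, and both controls lay between the *Rax* iCKO values. *Itga7*, best known from skeletal muscle, had 4.11 and 1.41 FPKM in the controls and 2.16 and 2.19 FPKM in the *Rax* iCKO libraries, so that the spread lay in the controls. *Itga6* stayed under the level needed for the test, with 0.941 and 0.740 FPKM in the controls and 1.08 and 0.585 FPKM in the *Rax* iCKO libraries. *Itga5*, the fibronectin receptor chain, had 1.77 and 1.06 FPKM in the controls and 1.12 and 1.08 FPKM in the *Rax* iCKO libraries. None of these separated the genotypes, and the log2 differences of the 3 tested were between -0.19 and -0.0036.

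The laminin chains tested were *Lama1*, *Lama5*, *Lamb2* and *Lamc1*, which give at least 1 chain of each kind. *Lamb2* (chr9:108479847-108490530) had 24.1 and 8.77 FPKM in the controls and 14.0 and 9.87 FPKM in the *Rax* iCKO libraries, with the control values the highest and the lowest of the 4. *Lamc1* (chr1:153218922-153332786), the common gamma chain, had 5.45 and 1.93 FPKM in the controls and 4.76 and 2.66 FPKM in the *Rax* iCKO libraries. In both genes the *Rax* iCKO values lay between the controls, and the log2 differences were -0.30 (SE 0.46) for *Lamb2* and 0.08 (SE 0.46) for *Lamc1*.

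*Lama1* (chr17:67697127-67822645), the alpha chain of embryonic basement membranes, had 4.79 and 1.36 FPKM in the controls and 5.18 and 2.37 FPKM in the *Rax* iCKO libraries. Each *Rax* iCKO library lay above the control of its own run, by 0.09 in mice 7983 and 7984 and by 0.51 in mice 3914 and 3911 on the log2 scale, and *Lama1* was the only member of the 12 to do so. The fitted difference was 0.30 (SE 0.52). *Lama5* (chr2:180176373-180225904), the alpha chain of most adult basement membranes, had 3.91 and 1.05 FPKM in the controls and 3.39 and 1.67 FPKM in the *Rax* iCKO libraries, again with both *Rax* iCKO values inside the range of the controls.

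Counted within the runs, where each *Rax* iCKO library meets 1 control, *Itgb5*, *Itgb1*, *Itgav* and *Itga9* lay below the control in both pairs, which is 4 of 12 members beside 31.7% of all genes tested, and 1 of 12 lay above in both, beside 30.7%. With the run as a block in limma, *Itgb5* had an unadjusted p of 0.00627 and *Itgb1* one of 0.0277, which is 2 of 12 members lower at an unadjusted p under 0.05 beside 8.87% of all genes tested (15.7% in either direction). Neither passed after adjustment, where the smallest adjusted p of a member was 0.141, while the same fit called 71 of the 12363 genes tested (0.574%).

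**Figure D2:**
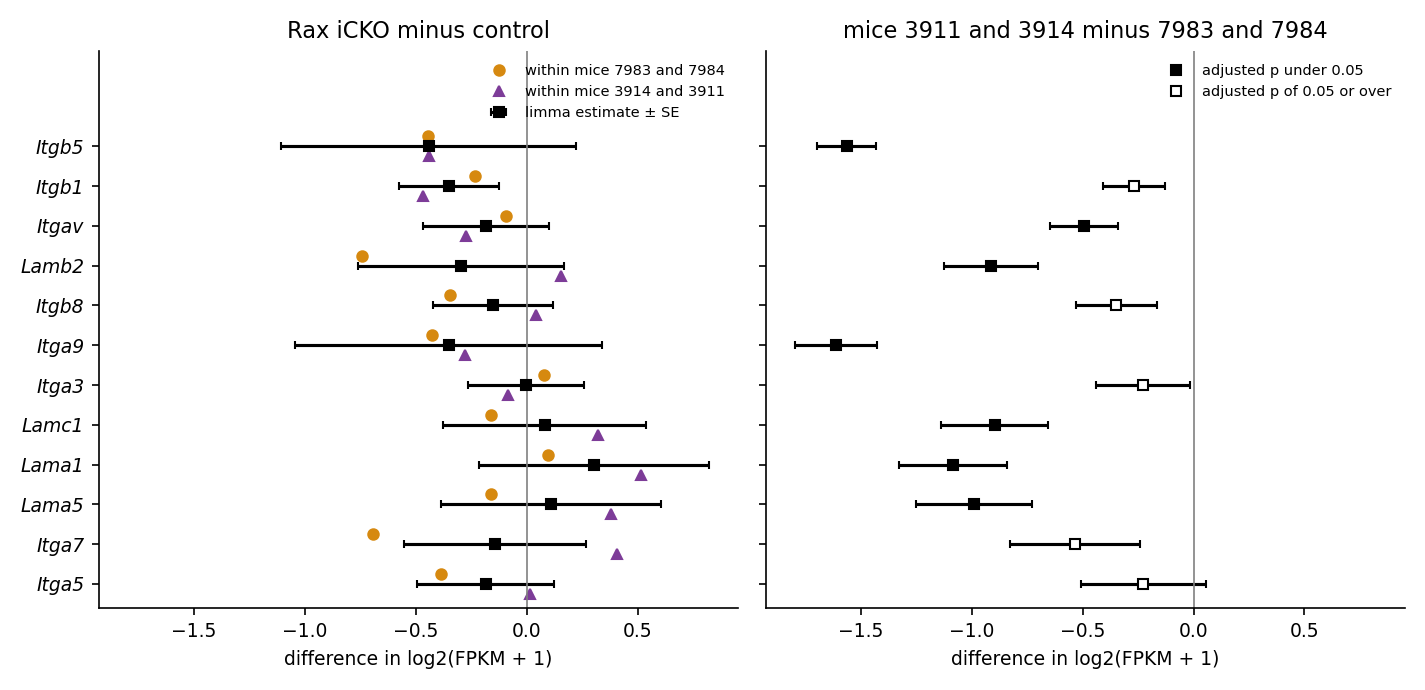
Differences in log2(FPKM + 1) for the 12 integrin and laminin genes tested. Left, *Rax* iCKO minus control, with the limma estimate and its SE (squares, 2 mice per group) and the difference within each run (circles and triangles); every SE bar but that of *Itgb1* reaches 0. Right, mice 3911 and 3914 minus mice 7983 and 7984 with the SE of a limma fit that also held genotype; filled squares mark the 7 genes with an adjusted p under 0.05, all of them negative.

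The members differed by run of mouse numbers. For 10 of the 12 members tested both libraries of mice 3911 and 3914 lay below both of mice 7983 and 7984, beside 26.8% of all genes tested, and for none did both lie above, beside 29.1%. The exceptions were *Itgb1* and *Itga7*. In a limma fit with genotype and run together, 7 members were lower in mice 3911 and 3914 at an adjusted p under 0.05 (8.88% of all genes tested) and 0 were higher (9.9%). The median difference was -0.72 on the log2 scale over the members and 0.0070 over all genes tested. The comparison of runs was made after the values had been seen, and each run is 2 mice. With no filter 2 of the 34 members above 0 were called lower (2.29% of all genes), and with a mean of at least 5 FPKM required 4 of the 7 that still entered (10.6%).

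*Itga9* and *Itgb5* stood out by size. The mean of *Itga9* was 3.50 times as high in mice 7983 and 7984 as in mice 3911 and 3914, a log2 difference of -1.61 (SE 0.19, limma adjusted p = 0.00022). *Itgb5* had run means of 129 and 43.1 FPKM, with a log2 difference of -1.56 (SE 0.13, limma adjusted p = 1.96e-05). The laminin chains moved in the same direction by a similar factor, with ratios of 2.69 for *Lama5*, 2.67 for *Lama1*, 2.23 for *Lamc1* and 2.04 for *Lamb2*. Their adjusted p-values in limma were between 0.0111 for *Lama1* and 0.0235 for *Lamc1*. *Itgav* was called as well, at a ratio of 1.42. *Itgb1*, at a ratio of 1.20, *Itga3*, at 1.21, *Itgb8*, at 1.31, *Itga5*, at 1.35, and *Itga7*, at 1.74, were not.

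Ratios between members within 1 library do not depend on how each library was scaled. *Itgb5* was 1.86 and 2.15 times the level of *Itgb1* in mice 7983 and 7984 and 0.813 and 0.798 times in mice 3914 and 3911, so the order of the leading beta subunits turned over between the runs and did so in both genotypes. *Itgav* was 1.94 and 1.51 times the level of *Itga9* in the first pair and 4.25 and 4.11 times in the second. *Itgb5* was 9.30 and 9.80 times the level of *Itgb8* in the first pair and 3.47 and 4.90 times in the second. Ratios of some other pairs varied less. *Itgb1* was between 2.12 and 2.80 times *Itgav*, *Itgav* between 1.74 and 2.36 times *Itgb8*, and *Lama1* between 1.22 and 1.53 times *Lama5* in the 4 libraries. *Lamb2* exceeded *Lamb1*, the other widespread beta chain, by 24.4 to 50.5 times, although *Lamb1* was at no more than 0.550 FPKM.

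**Figure D3:**
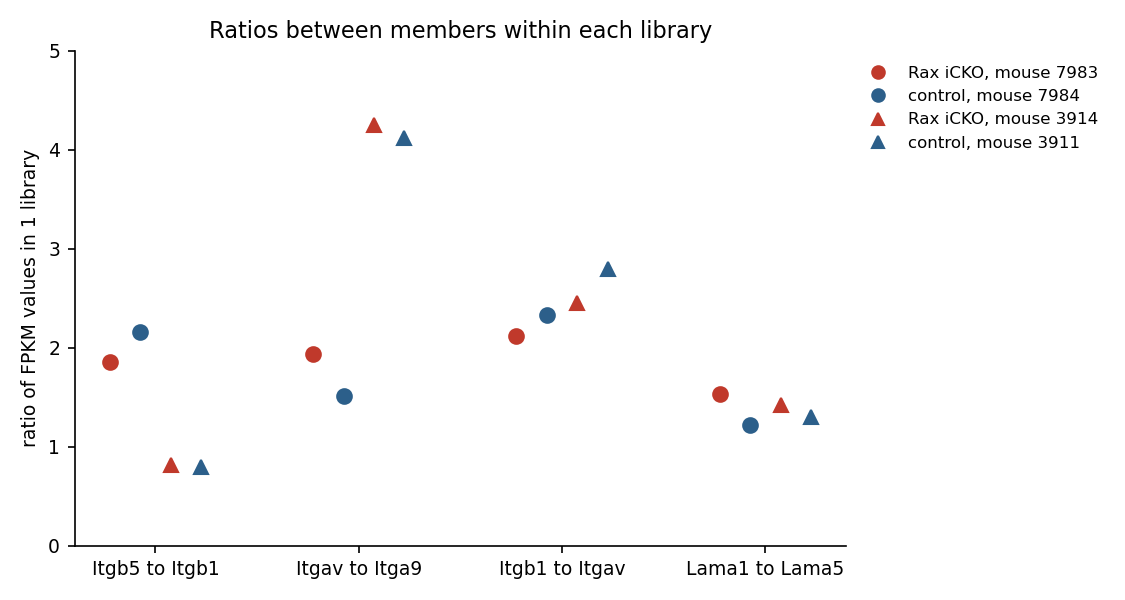
Ratio of the FPKM of a pair of members within each library, on a linear axis from 0 (red, *Rax* iCKO; blue, control; circles, mice 7983 and 7984; triangles, mice 3914 and 3911). The ratios of *Itgb5* to *Itgb1* and of *Itgav* to *Itga9* separate circles from triangles, and that of *Lama1* to *Lama5* stays between 1.22 and 1.53.

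Gene length and cell type markers differed between the same pairs of libraries. Over genes with an exon length in GENCODE (96.3% of those tested), the median difference, mice 3911 and 3914 minus mice 7983 and 7984, was 0.37 on the log2 scale for the 659 genes under 1000 bases and -0.21 for the 855 genes over 8000 bases. Both libraries of mice 3911 and 3914 lay below both others for 5.77% of the shortest class and 42.9% of the longest. The difference between the genotypes also went with length, with medians, *Rax* iCKO minus control, of -0.20 in the shortest class, 0.08 for the genes of 4000 to 8000 bases, which hold 7 of the 12 members, and 0.18 in the longest. The members tested are long genes, with exon unions of 3391 to 11388 bases and a median of 6342 bases, beside 3299 bases for all genes tested. The fitted difference of each of the 12 was below the median of its own length class, and that of *Itga3* (-0.23, SE 0.21) and *Itga5* (-0.23, SE 0.28) lay within 1 SE of the class median of -0.17, as did that of *Itgb8* (-0.35, SE 0.18) of its own of -0.21. Of the 12 Müller glial markers, 8 were below in both libraries of mice 3911 and 3914 and 0 above, and of the 8 bipolar markers 0 were below and 5 above. Over all genes tested the shares were 26.8% below and 29.1% above. Other lists with at least 3 markers below were those of microglia (6 of 10 below, 0 above), pericytes (4 of 8 and 0), amacrine cells (3 of 6 and 0) and pigment epithelium (3 of 10 and 1). The part of gene length and of cell makeup in the differences of the integrins and laminins was not tested.

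**Figure D4:**
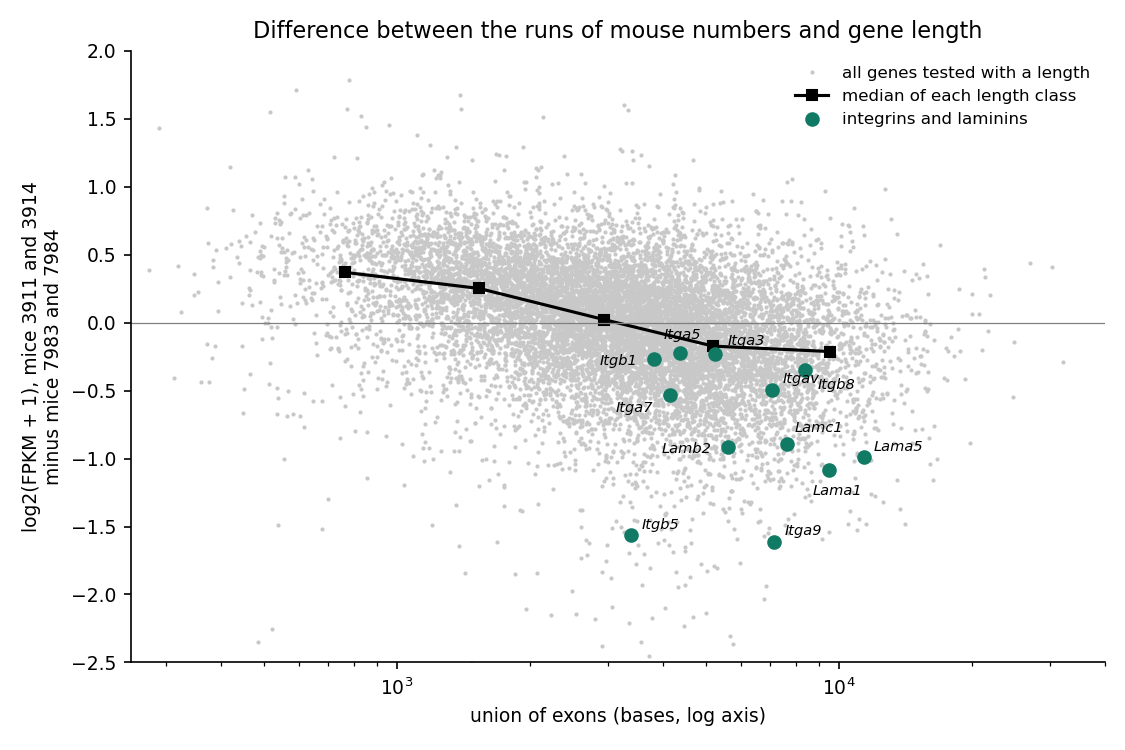
Difference in log2(FPKM + 1) between mice 3911 and 3914 and mice 7983 and 7984 against the length of the union of exons, on a log axis, for all genes tested (grey; 91 genes lie outside the axes), with the median of each of 5 length classes (black) and the 12 members (green). The medians go from 0.37 in the shortest class to -0.21 in the longest, and every member lies below the median of its class.

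The 25 members below the filter split by how widely they were seen. Of these, 13 were above 0 in all 4 libraries, 9 in 1 to 3 libraries, and *Itgad*, *Lama3* and *Lamb3* were listed at 0 in all 4. *Itgb4*, the partner of alpha 6 in hemidesmosomes, was at 1.06 and 0.628 FPKM in the *Rax* iCKO libraries and at 0.662 and 0.886 FPKM in the controls. *Itga4*, *Lama2*, *Itga11* and *Lamb1* had means between 0.405 and 0.698 FPKM. *Lama4*, found in vessel walls, had a mean of 0.151 FPKM, and of the 10 endothelial markers the defining *Pecam1* and *Cdh5* were at no more than 0.638 FPKM. The sum of the 10 was between 237 and 471 FPKM, almost all of it *Kdr*, at 228 to 464 FPKM, followed by *Esam* at 4.18 to 6.36 FPKM, and the part of endothelium in these levels was not tested. *Lamc3* and *Itgb6* were above 0 in 1 library each. Among the 22 of the 25 above 0 in at least 1 library, the *Rax* iCKO values were both under both controls for *Lama4* (0.0543 and 0.0917 against 0.349 and 0.110 FPKM) and above both for *Itgax* (0.0830 and 0.0280 against 0 and 0 FPKM), beside 15.5% and 10% of the 5502 genes at that level. Both were named after their values were seen, and *Itgax* rested on 3 and 1 reads. With no filter in limma, no member had an adjusted p under 0.05, and neither did any other of the 17865 genes fitted.

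Integrins of blood cells were among them. *Itgam*, the alpha chain of the complement receptor of microglia and other myeloid cells, was at 0.455 and 0.312 FPKM in the controls and at 0.662 and 0.0479 FPKM in the *Rax* iCKO libraries, and *Itgb2*, its beta chain, at 0.265 and 0.405 FPKM and at 0.318 and 0.121 FPKM. The *Rax* iCKO library of mouse 3914 was the lowest of the 4 for both. The 10 microglial markers summed to 42.8 and 45.5 FPKM in the controls and to 76.8 and 9.97 FPKM in the *Rax* iCKO libraries, also lowest in mouse 3914, and none of the 10 was at 0 in all libraries. The 6 granulocyte markers measured summed to 29.9 FPKM in control 7984, to 1.88 FPKM in mouse 7983 and to 0 FPKM in mice 3914 and 3911. The part of microglia and of granulocytes in the level of *Itgam* and *Itgb2* was not tested. *Itga2b*, the platelet chain, was between 0.196 and 0.365 FPKM, from 6 to 14 reads per library. *Itgal*, *Itgae*, *Itgax* and *Itgb7*, of lymphocytes and other leukocytes, had means between 0.0278 and 0.283 FPKM.

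The other genes of the attachment machinery were read from the same fit. Of 24 further basement membrane genes 13 were tested, of 34 genes of the dystroglycan system and other matrix receptors, such as syndecans, *Ddr1* and *Cd44*, 28, of 33 genes that link integrins to the cytoskeleton or sit beside them in the membrane 26, and of 35 integrin ligands other than laminin 18. Between the genotypes the 4 lists held 0 genes past the adjusted threshold, and at an unadjusted p under 0.05 the count was 1 of the 85 tested, beside 0.0243% and 2.86% of all genes tested. That gene was *Cyr61*, which encodes a secreted ligand of alpha v integrins. *Cyr61* was at 559 and 429.8 FPKM in the controls and at 326 and 279 FPKM in the *Rax* iCKO libraries, both below both controls, with a log2 difference of -0.70 (SE 0.28, adjusted p = 0.9999 in limma). With the run as a block, 1, 4, 3 and 4 genes of the lists, in the same order, were lower in *Rax* iCKO cells at an unadjusted p under 0.05 and 0, 1, 0 and 2 higher, beside 8.87% and 6.81% of all genes tested, and none passed after adjustment. *Cyr61* then had an adjusted p of 0.0511 in limma. The median log2 differences of the lists were -0.02, -0.06, -0.05 and -0.14.

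The most abundant genes of the lists encode secreted and membrane proteins. *Sparc*, a matricellular protein, had a mean of 1339 FPKM, and *Mfge8*, whose product bridges alpha v integrins and phosphatidylserine, one of 2534 FPKM. *Mfge8* was at 3742 and 2464 FPKM in the controls and at 2132 and 1796 FPKM in the *Rax* iCKO libraries, without overlap, but its log2 difference of -0.63 (SE 0.44) had an adjusted p of 0.9999 in limma. The tetraspanins *Cd9* and *Cd81*, which sit beside integrins in the membrane, were likewise under both controls in both *Rax* iCKO libraries, with log2 differences of -0.49 (SE 0.31) and -0.33 (SE 0.29). With quantile normalization the log2 differences were smaller, at -0.33 for *Mfge8*, -0.26 for *Cd9* and -0.10 for *Cd81*. Over the lists, groups without overlap and with *Rax* iCKO lower were seen for 1 of 13 basement membrane genes, 6 of 28 receptors, 4 of 26 adhesion genes and 3 of 18 ligands, and with *Rax* iCKO higher for 1, 2, 1 and 2, beside 14.1% and 15.4% of all genes tested. *B4gat1*, an enzyme of dystroglycan glycosylation, had a log2 difference of -0.15 (SE 0.21), and of -0.033 without control 7984. *Dag1*, which encodes dystroglycan, a laminin receptor of Müller endfeet, was at 83.7 and 39.1 FPKM in the controls and at 66.9 and 42.6 FPKM in the *Rax* iCKO libraries, with the controls the highest and the lowest.

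The same counts were made by run. Both libraries of mice 3911 and 3914 lay below both others for 8 of 13 basement membrane genes, 15 of 28 receptors, 16 of 26 adhesion genes and 8 of 18 ligands, and above for 1, 2, 1 and 1, beside 26.8% and 29.1% of all genes tested. At an adjusted p under 0.05 in limma, 6, 6, 9 and 4 genes of the lists were lower in mice 3911 and 3914 and none was higher, beside 8.88% and 9.9% of all genes tested. Among them were *Ddr1*, a collagen receptor, at -0.74 (adjusted p = 0.00438), *Dag1* at -0.86 (adjusted p = 0.00338), *Col18a1* at -0.86 (adjusted p = 0.00515), *Ntn4* at -1.02 (adjusted p = 0.00317) and *Vcam1* at -0.85 (adjusted p = 0.00204), all on the log2 scale. *Sparc*, at 0.18, and *Ilk*, the integrin-linked kinase, at 0.08, were not called.

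**Figure D5:**
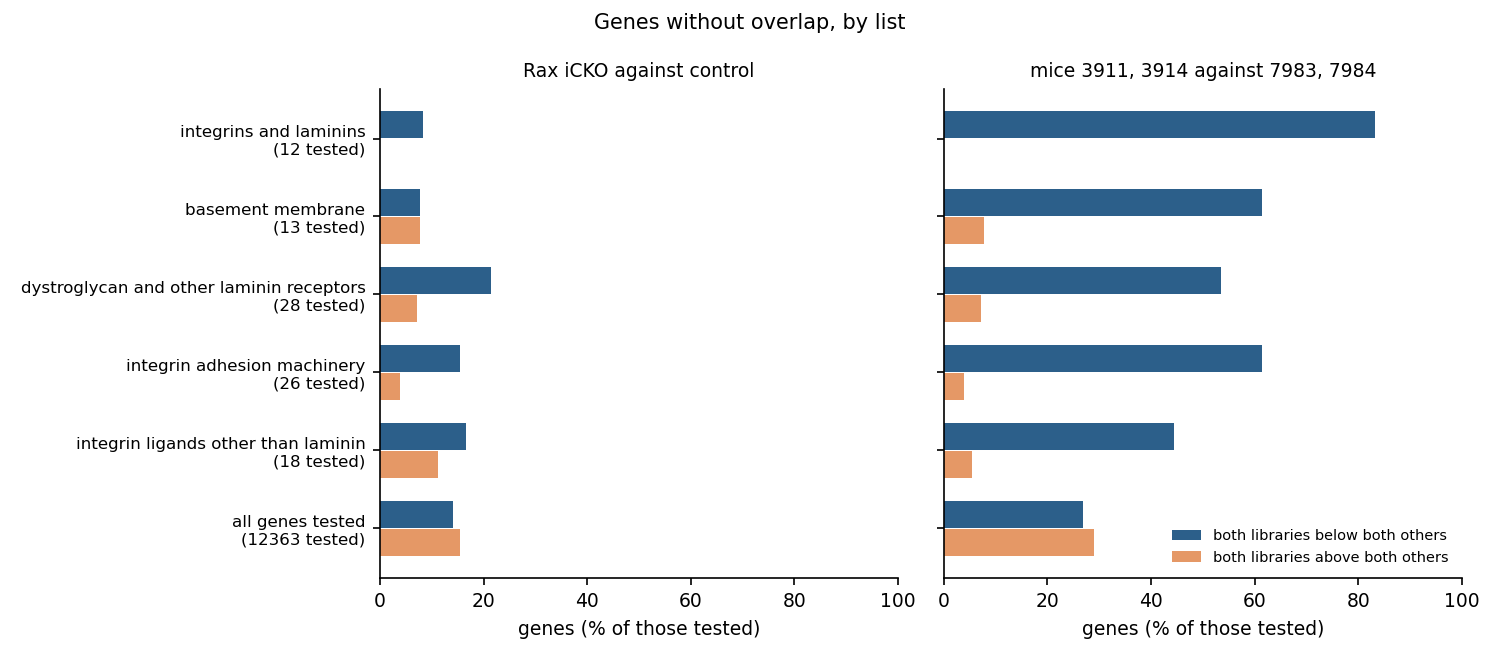
Percent of the tested genes of each list for which both libraries of one group lay below (blue) or above (orange) both libraries of the other, for *Rax* iCKO against control (left) and mice 3911 and 3914 against mice 7983 and 7984 (right), on linear axes from 0. The blue bars on the right stand for 10 of 12 members and 8 of 13 basement membrane genes, and the lowest pair of bars gives all 12363 genes tested.

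The promoters were searched for TAATT, a sequence predicted to bind Rax, on both strands. RefSeq promoter windows (GRCm38.p6) from 250 bases before to 50 bases after an annotated start were read for 23 of the 37 genes. The letters were found in 6 of these 23 genes (26.1%) and in 29.9% of all 27025 genes with a window. Among the members tested with a window, 2 of 9 held them (22.2%), *Lamb2* and *Itgb8*, beside 18.8% of all genes tested. A match is a description of the letters and no sign of binding. The sequences of these 2 are shown with the match in capitals, and that of *Itgb1*, the member without overlap between the genotypes, which holds none, is shown for comparison. All are written 5′ to 3′ on the strand of the gene.
*Lamb2* (chr9:108479612-108479911, plus strand): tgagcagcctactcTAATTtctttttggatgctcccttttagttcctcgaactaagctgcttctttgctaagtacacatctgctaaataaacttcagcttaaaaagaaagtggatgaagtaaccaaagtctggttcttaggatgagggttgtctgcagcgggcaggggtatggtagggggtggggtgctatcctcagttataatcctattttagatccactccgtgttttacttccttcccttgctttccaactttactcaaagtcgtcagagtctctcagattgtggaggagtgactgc
*Itgb8* (chr12:119238227-119238526, minus strand): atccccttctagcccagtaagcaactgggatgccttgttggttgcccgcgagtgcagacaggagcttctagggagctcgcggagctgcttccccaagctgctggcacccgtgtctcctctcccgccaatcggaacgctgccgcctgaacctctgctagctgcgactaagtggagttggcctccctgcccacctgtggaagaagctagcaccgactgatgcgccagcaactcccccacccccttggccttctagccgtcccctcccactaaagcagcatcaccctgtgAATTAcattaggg
*Itgb1* (chr8:128685404-128685703, plus strand): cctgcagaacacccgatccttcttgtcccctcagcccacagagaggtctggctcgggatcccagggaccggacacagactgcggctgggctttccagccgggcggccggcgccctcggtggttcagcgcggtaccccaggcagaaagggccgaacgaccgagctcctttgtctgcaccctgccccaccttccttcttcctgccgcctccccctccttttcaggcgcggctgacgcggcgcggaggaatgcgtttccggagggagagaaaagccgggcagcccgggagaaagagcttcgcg

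In *Lamb2* the match begins 236 bases before the start and reads TAATT on the strand of the gene. In *Itgb8* it begins at base 38 of the transcript and reads TAATT on the other strand. The window of *Itgb1* had 67.3% G and C and 27 CpG dinucleotides and that of *Lamb2* 44% and 4, beside medians of 52.7% and 7 over all windows. As described above, *Lamb2* and *Itgb8* had log2 differences of -0.30 and -0.15 between *Rax* iCKO and control cells, with overlapping groups in both, and the windows of *Itgb5*, *Itgav* and *Itga9* held no match. The windows of *Itga9* (chr9:118711442-118711741) and *Itgav* (chr2:83724147-83724446) lie inside the gene ranges given above. The bases before the first position of those ranges were therefore not searched.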

How the data were processed

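RNA-seq was done on mTFP1-positive retinal cells of 4 mice. Per the labels, cDNA was made with SMART-Seq HT and libraries with Nextera XT, which do not mark strand. Single-end reads were mapped to mm10 with TopHat2 2.1.1, Bowtie2 2.2.8 and SAMtools 0.1.18 per the submitters' processing notes, while the methods of the study name the same tools in other versions. The values deposited are FPKM from Cufflinks or Cuffdiff 2.2.1, as the authors made them, and read counts were not used here. FPKM set each gene to its length and each library to its mapped reads, so a few abundant genes can shift all others. Values were used as deposited.

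Groups came from the genotype in the labels. Genes with a mean of at least 1 FPKM (12363) were fitted with limma 3.58.1 (lmFit, eBayes with a trend) in R 4.3.3 on log2(FPKM + 1), which understates changes of low genes, with Benjamini-Hochberg adjustment over all of them and a threshold of 0.05. A block by run of mouse numbers was a listed alternative, and reading the run difference itself from that fit was added after the values were seen. Per 200 changed genes on simulated data (log2 change 2, 12363 genes) 197 were recovered and 10 unchanged genes were called. The changed genes were drawn from the higher levels only, and the simulated libraries held no difference between runs. Recovery of smaller changes, or of changes in low genes, was not tested.

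Whole-read steps were found for 94.5% of 2310 low genes (tolerance 2%, up to 20 reads), which gave the depths and the reads of low genes. Exon lengths came from GENCODE and promoters from RefSeq. Every member with a mean of at least 1 FPKM was named. Of the further lists, the 3 genes with the highest means and those with an unadjusted p under 0.05 were named. The values of 1 gene are not reported here. Members and lists were chosen with earlier results of these data known. Alternatives changed the pseudocount (0.1), the filter (none, or a mean of at least 5 FPKM), the scaling (quantile normalization or equal medians) and the variance trend, added a block by run, or left out 1 library. Whether the samples are separate litters or sorts is not given in the sources used here, so p-values measure the spread between these libraries.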

Additional observations from a re-analysis of the deposited data

How the results depend on the processing

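No integrin or laminin gene had an adjusted p under 0.05 between the genotypes in limma under any of the 11 alternatives run. At an unadjusted p under 0.05 the count lower in *Rax* iCKO cells went from 0 to 2 of 12 with the block by run, where the share of all genes tested at that p, in either direction, went from 2.86% to 15.7%. The count with both *Rax* iCKO libraries above both controls went from 0 of 12 (15.4% of all genes) to 1 of 34 without a filter (13.7%). The count with both below went from 1 of 12 (14.1%) to 2 of 34 without a filter (14.5%). It was 0 of 12 with quantile normalization (14.5%) and 2 of 12 with equal medians (15.2%). The members called lower in mice 3911 and 3914 went from 7 of 12 (8.88% of all genes) to 2 of 34 without a filter (2.29%) and to 4 of the 7 that entered with a mean of at least 5 FPKM (10.6%), and were 8 with quantile normalization (9.28%) and 6 with equal medians (8.13%, and 15.7% of all genes higher). With 1 library left out, the genotypes no longer share the runs equally, so the difference between runs enters. The log2 difference between genotypes then changed sign in 11 of the 12 members tested, the exception being *Itgb1* (from -0.54 to -0.16), and none was past the threshold, although *Itgb5*, *Itgav*, *Itga9* and *Lama1* had the same sign within both runs. It ran from -1.23 to 0.34 for *Itgb5*, from -0.48 to 0.11 for *Itgav*, from -0.42 to 0.12 for *Itgb8*, from -1.20 to 0.49 for *Itga9*, from -0.16 to 0.15 for *Itga3*, from -0.69 to 0.40 for *Itga7*, from -0.40 to 0.028 for *Itga5*, from -0.34 to 0.95 for *Lama1*, from -0.52 to 0.74 for *Lama5*, from -0.98 to 0.39 for *Lamb2* and from -0.49 to 0.65 for *Lamc1*. Among the other genes named it ran from -0.94 to 0.17 for *Col18a1*, from -0.85 to 0.46 for *Ntn4*, from -0.64 to 0.44 for *Dag1*, from -0.86 to 0.0031 for *Ddr1* and from -0.13 to 0.064 for *Ilk*, and *Ilk* was at 0.097 with quantile normalization. With no change of sign it ran from -0.93 to -0.33 for *Mfge8*, from -0.64 to -0.33 for *Cd9* and from -1.05 to -0.12 for *Vcam1*. Without 1 library the counts of members without overlap were between 0 and 7 with *Rax* iCKO above (29.7% to 35% of all genes) and between 1 and 10 with *Rax* iCKO below (29.1% to 35.3%). *Rax* itself passed with the block by run, at a log2 difference of -0.82 and adjusted p = 0.0223 in limma. Low members rested on few reads, and 2 mice per group limit every test.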
